A study of Mus musculus with 6 samples.

Results

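The genes described here encode the 4 families of secreted and membrane-bound guidance cues, the semaphorins, ephrins, Slits and netrins, together with their receptors, the plexins, neuropilins, Eph receptors, Robos and Unc5 proteins. They were chosen by name: every protein-coding gene of the table whose symbol belongs to one of these families was taken, which gave 67 genes of 46983 in all, of which 21930 were protein-coding. Whole aortic valves of wild type C57BL/6J mice were compared at postnatal day 2 (PND2), when the leaflets are still growing, and at 4 months, in the adult. RNA-seq was made of 3 libraries per age, each from the valves of 5 to 6 pooled mice. A value is thus the mean of a pool, and nothing was measured of single animals or single cell types. The paper describes minimal myocardial contamination of the valves, but cardiomyocyte markers were abundant in these libraries (levels given below).

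Guidance cues were first known from the growing axon, where they attract or repel the growth cone, and the same ligand and receptor pairs direct cells of the heart and vessels. Secreted class 3 semaphorins act through complexes of neuropilins and plexins, most membrane-bound semaphorins bind plexins directly, Slits bind Robos, netrins bind Unc5 receptors or Dcc and Neo1, and ephrins on one cell bind Eph receptors on the next, with signals into both cells. In the developing heart these pathways are known for septation of the outflow tract (Sema3c and Plxnd1), for the separation of arteries from veins (Efnb2 and Ephb4) and for the endocardial cushions from which the valves form (Efna1 and Epha3).

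The levels are RPKM, reads scaled to the length of a gene's exons and to the size of the library. Genes and ages are thus on one scale, but the levels are relative to the library total. Between genes they also depend on which exons are annotated. The library totals, recovered from the RPKM values rather than given with them, ran from 23810507 to 38994657 reads. Fold changes are 4 months against PND2 on the log2(RPKM + 0.1) scale, with the standard error (SE) and the adjusted p of limma, and a gene was called where that adjusted p was under 0.05 over the 25903 genes tested. All 12 markers of valve interstitial cells, the main cells of the leaflet, were detected at both ages, with a summed level of 6762 to 7462 RPKM at PND2 and 8234 to 10366 RPKM at 4 months (3 higher, 6 lower). Dcn weighed most in the rise of this sum, from a mean of 1054 to 3961 RPKM, while the median log2 fold change of the 12 was -0.40. Other cells were present as well. The summed level of 12 endothelial markers went from 681 to 947 RPKM at PND2 to 399 to 415 RPKM at 4 months (10 lower), that of 4 lymphatic markers from 106 to 204 to 72.0 to 83.2 RPKM (2 lower), and that of 10 cardiomyocyte markers from 11821 to 14113 to 4680 to 8521 RPKM (5 lower). The summed levels of 6 smooth muscle markers (747 to 988 and 2899 to 4297 RPKM, 4 higher), 7 adipocyte markers (63.8 to 147 and 326 to 1427 RPKM, 6 higher), 8 macrophage markers (205 to 260 and 429 to 548 RPKM, 6 higher and 1 lower) and 8 Schwann cell markers (16.4 to 32.5 and 51.1 to 58.0 RPKM, 3 higher) lay above the PND2 range at 4 months. The 8 neuron markers stayed low (5.87 to 15.7 and 2.65 to 9.66 RPKM, 6 tested and 1 lower), 5 melanocyte markers measured 44.7 to 92.9 and 27.4 to 51.6 RPKM (2 lower), and 10 mitosis genes all fell, from 50.7 to 97.8 to 7.44 to 8.06 RPKM. Of 5 erythroid markers (1543 to 2149 and 623 to 1791 RPKM), 4 were tested and limma called 0, with 0 at an unadjusted p under 0.05 and 0 by voom on the recovered reads. In such bulk samples, fewer cells of a type and less RNA per cell cannot be told apart.

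Most of the guidance genes that changed with age were lower in the adult valve. Of the 67 genes, 61 were expressed above the minimum of 0.1 RPKM in 3 libraries and were tested. At 4 months 8 were higher and 26 were lower, and 27 did not pass the test. The share called was 55.7% (13.1% higher and 42.6% lower). Over all genes tested 35.8% were called (14.7% higher and 21.1% lower), and over the 16315 protein-coding genes tested 42.2% were called (18.6% higher and 23.6% lower). The median log2 fold change was -0.58 for the guidance genes, -0.14 for all genes tested and -0.10 for the protein-coding ones. With the libraries scaled to a common median, the median over all genes moved to -0.02 and 9 guidance genes were higher and 24 lower. The share of calls that were higher then moved from 41.1 to 52.7% over all genes and from 23.5 to 27.3% over the guidance genes. Calls with more than a 2-fold difference took in 20 guidance genes (32.8%), against 19.7% of the protein-coding genes, with 4 higher and 16 lower. The 3 libraries of one age lay wholly above the 3 of the other for 38 guidance genes (62.3%), a share close to the 57.8% of the protein-coding genes. The summed level of all 67 genes was 968, 1151 and 1170 RPKM at PND2 and 871, 794 and 823 RPKM at 4 months.

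**Figure D1:**
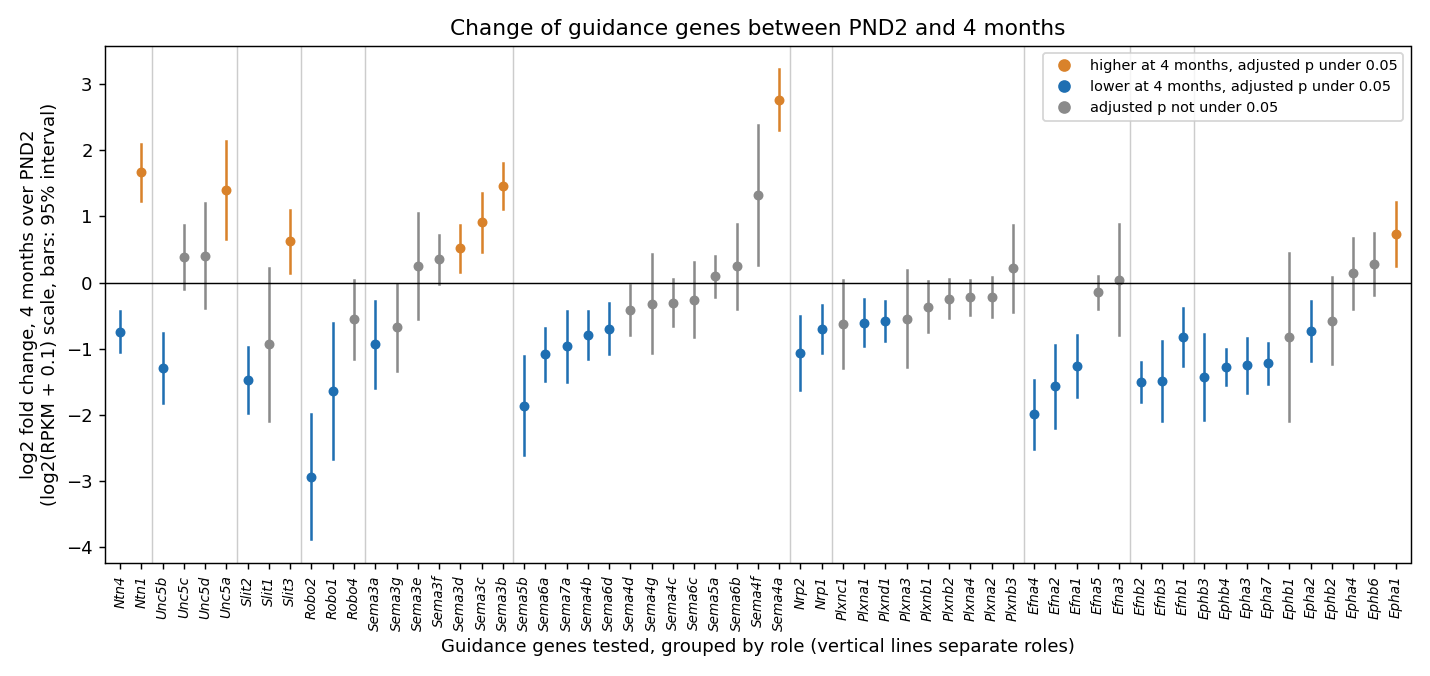
Log2 fold change at 4 months against PND2 (y axis, log2(RPKM + 0.1) scale) for each of the 61 guidance genes tested (x axis, grouped by role), with the 95% interval of the limma fit as a bar and the colour showing the call. The 26 genes called lower run from -0.58 (Plxnd1) to -2.94 (Robo2), and the 8 called higher from 0.52 (Sema3d) to 2.77 (Sema4a).

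The order of the levels also differed between the ages. At PND2 the highest means belonged to the netrin receptor Unc5b (111.9 RPKM) and the neuropilin Nrp1 (99.4 RPKM), whose libraries overlapped, and then to Plxnb2, Ephb4 and Efnb2 (73.8, 68.8 and 68.0 RPKM). At 4 months they belonged to the ligands Slit3 (80.4 RPKM) and Ntn1 (70.4 RPKM), whose libraries overlapped, and then to Plxnb2, Nrp1 and Sema3f (62.1, 61.1 and 53.0 RPKM). The adult libraries of these next genes all overlapped those of Ntn1, and those of Nrp1 also overlapped those of Slit3. In 4 months replicate 2, Nrp1 (73.3 RPKM) stood above both Slit3 (70.5 RPKM) and Ntn1 (59.2 RPKM). Plxnb2, a receptor of class 4 semaphorins, kept a place near the top at both ages.

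**Figure D2:**
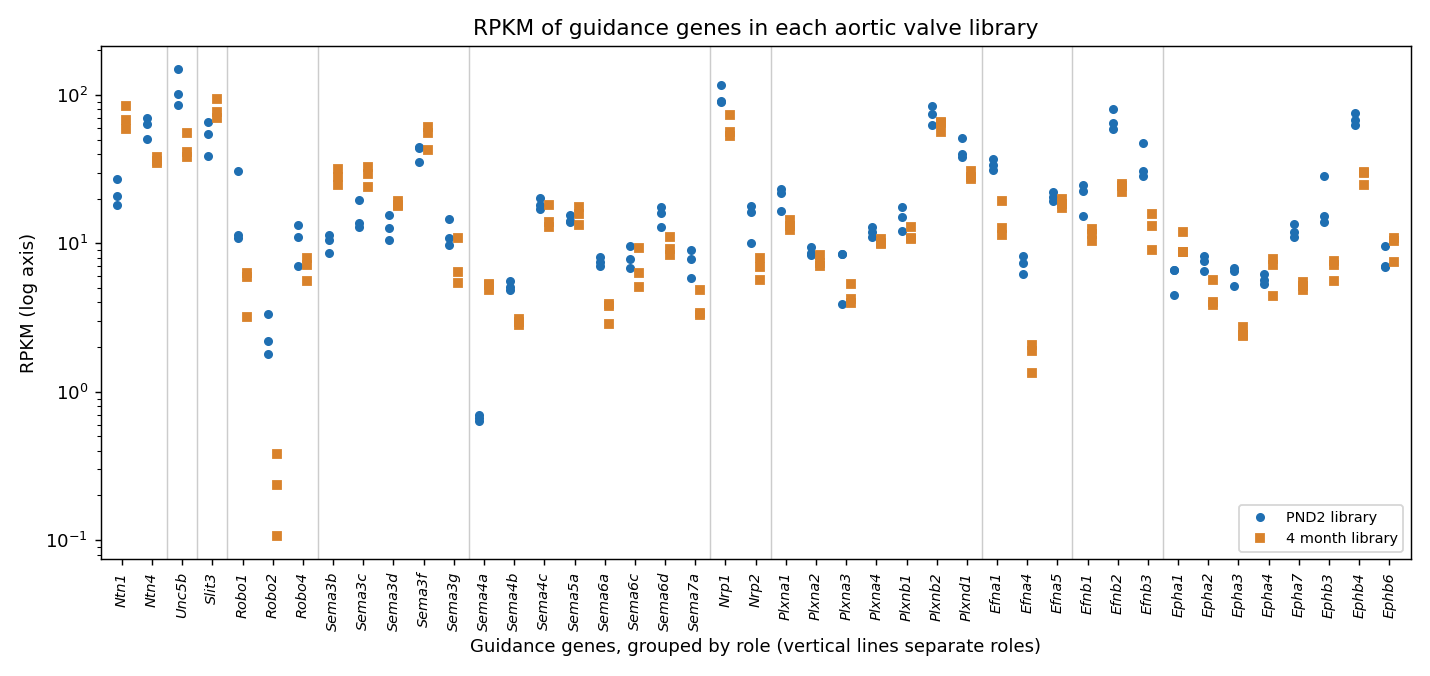
Level (y axis, RPKM, log axis) of each of 43 guidance genes (x axis, grouped by role) in the 3 PND2 and the 3 4 month libraries, 1 point per library, for genes with a mean of at least 5 RPKM at one age or a called log2 fold change of at least 2 in size. Slit3 and Ntn1 have the highest means at 4 months, and Unc5b and Nrp1 at PND2.

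Of the netrins, 1 was higher and 1 lower at 4 months, and so were their Unc5 receptors. Ntn1, a secreted, laminin-related cue of axons and vessels, measured 18.2, 20.9 and 27.3 RPKM at PND2 and 83.8, 59.2 and 68.3 RPKM at 4 months. Every adult library lay above every PND2 library, and Ntn1 was 3.18-fold higher at 4 months (log2 fold change 1.67, SE 0.18, adjusted p = 0.000704). Ntn4, a netrin of basement membranes, was the more abundant netrin at PND2, with 63.4, 50.5 and 70.2 RPKM at PND2 and 35.7, 34.9 and 38.1 RPKM at 4 months. Its libraries did not overlap and it fell (log2 fold change -0.75, SE 0.13, adjusted p = 0.00484). The third netrin gene, Ntn5, had at most 6 reads in any library and was not tested, and 23.4% of its exonic bases are shared with Sec1 on the opposite strand.

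Unc5b, a netrin receptor best known from vascular endothelium, fell from the highest level of the set at PND2, with 85.03, 149 and 102 RPKM at PND2 and 37.96, 41.3 and 55.6 RPKM at 4 months. The ages did not overlap, and the log2 fold change was -1.29 (SE 0.23, adjusted p = 0.00484). Unc5a, a paralogue mainly known from neurons, was low at both ages but rose, with 0.58, 0.31 and 0.48 RPKM at PND2 and 1.07, 1.66 and 1.38 RPKM at 4 months (log2 fold change 1.41, SE 0.32, adjusted p = 0.0128), and 0.82% of its exonic bases are shared with Hk3. Unc5c and Unc5d, which complete the family, did not pass the test at means of 3.28 and 4.25 RPKM and of 0.33 and 0.46 RPKM, although voom on recovered reads called Unc5c higher (log2 fold change 0.54, adjusted p = 0.0231, against 0.39 and 0.192). The attractive netrin receptor Dcc was under 0.1 RPKM in all libraries, whereas Neo1, its relative and also a netrin receptor, stood at 63.2 ± 10.7 RPKM at PND2 and 61.3 ± 4.70 RPKM at 4 months (SD, n = 3 each) with a log2 fold change of -0.03 (SE 0.14, limma adjusted p = 0.877). The ratio of Ntn1 to Unc5b was 0.21, 0.14 and 0.27 in the PND2 libraries and 2.21, 1.43 and 1.23 in the adult libraries, so that the ligand's level was below that of the receptor in every PND2 library and above it in every adult one. The mean ratio differed by 7.81-fold, and the exact permutation test (2-sided) gave p = 0.1, the smallest p that 3 against 3 libraries allow. The mean ratio of Ntn1 to Ntn4 was 0.36 at PND2 and 1.94 at 4 months, again without overlap (exact permutation p = 0.1). These ratios, and those given further on, were chosen after the values had been seen. Ntn1 lay wholly higher at 4 months, and Unc5b and Ntn4 wholly lower. The separation of both ratios, and their p, were thus fixed by the single genes and are no further evidence.

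Among the Slits, the large secreted ligands of the Robos, Slit3 and Slit2 changed in opposite directions. Of the 3 Slits tested 66.7% were called, against 42.2% of the protein-coding genes tested. Slit3 was by far the most abundant, with 38.6, 65.7 and 54.6 RPKM at PND2 and 94.2, 70.5 and 76.6 RPKM at 4 months. The ages did not overlap, and the difference passed the test by little (log2 fold change 0.63, SE 0.20, adjusted p = 0.049). The rise of Slit3 was no longer called without PND2 replicate 1, PND2 replicate 3, 4 months replicate 1, 4 months replicate 2 or 4 months replicate 3 (adjusted p from 0.0618 to 0.13). It held in 5 of the 16 alternative analyses. Slit2 measured 2.60, 3.25 and 2.82 RPKM at PND2 and 0.99, 1.02 and 0.89 RPKM at 4 months, without overlap, and fell (log2 fold change -1.48, SE 0.21, adjusted p = 0.00208). Slit1, the most neuronal of the Slits, was near the lower limit of the test, at means of 0.31 and 0.12 RPKM, and did not pass it. The ratio of Slit3 to Slit2 was 14.8, 20.2 and 19.4 at PND2 and 94.98, 68.98 and 85.9 at 4 months, a 4.59-fold difference of the means (exact permutation p = 0.1). Since each gene separated the ages, in opposite directions, this p was fixed in advance. The size of this ratio depends on the annotated exonic lengths, 6067 bases for Slit3 and 25433 for Slit2, which enter both ages alike.

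Of the Robos, 3 were tested and 2 fell. The share called was 66.7%, against 42.2% of the protein-coding genes tested. Robo1 measured 10.8, 30.5 and 11.5 RPKM at PND2 and 3.17, 6.33 and 5.96 RPKM at 4 months. PND2 replicate 2 stood far above the other libraries of its age, and all 3 PND2 libraries lay above the adult ones (log2 fold change -1.64, SE 0.44, adjusted p = 0.0247). Without PND2 replicate 2 the log2 fold change was -1.16. The fall of Robo1 was no longer called without 4 months replicate 1 or 4 months replicate 3 (adjusted p from 0.0516 to 0.0651). Robo2, a close relative of Robo1, had the largest fitted fall of the 61 genes tested: it measured 2.20, 3.35 and 1.79 RPKM at PND2 and 0.11, 0.38 and 0.23 RPKM at 4 months, without overlap (log2 fold change -2.94, SE 0.40, adjusted p = 0.00178). With a pseudocount of 1 its log2 fold change was -1.45, smaller in size than that of Efna4 (-1.58). Robo4, the endothelial member of the family, measured 13.3, 7.08 and 11.02 RPKM at PND2 and 5.60, 8.03 and 7.10 RPKM at 4 months. The ages overlapped and it did not pass the test (log2 fold change -0.56, SE 0.25, adjusted p = 0.127). Robo4 was called without PND2 replicate 2 (adjusted p = 0.0273). The remaining member, Robo3, had 4 to 11 reads per library and was not tested. The ratio of Slit3 to Robo1 was 3.56, 2.15 and 4.76 at PND2 and 29.7, 11.1 and 12.9 at 4 months (exact permutation p = 0.1). This p, too, was fixed by the separation of the single genes.

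The class 3 semaphorins, the secreted members of the family, made up 3 of the 8 guidance genes that were higher in the adult. Of the 7 tested 57.1% were called (42.9% higher), against 42.2% (18.6% higher) of the protein-coding genes tested. Sema3b, known as a repellent cue and tumour suppressor, measured 8.68, 11.4 and 10.5 RPKM at PND2 and 31.9, 24.7 and 27.8 RPKM at 4 months. It rose 2.76-fold without overlap (log2 fold change 1.46, SE 0.15, adjusted p = 0.000495). Sema3c, whose loss is known to disturb outflow tract septation, measured 12.98, 19.6 and 13.7 RPKM at PND2 and 29.5, 32.6 and 24.1 RPKM at 4 months, again without overlap (log2 fold change 0.91, SE 0.19, adjusted p = 0.00901). Sema3d, a cue of cardiac neural crest and of pulmonary veins, rose less, with 15.6, 10.6 and 12.8 RPKM at PND2 and 18.2, 19.2 and 17.9 RPKM at 4 months (log2 fold change 0.52, SE 0.15, adjusted p = 0.0326). The rise of Sema3d was no longer called without PND2 replicate 2, PND2 replicate 3, 4 months replicate 1, 4 months replicate 2 or 4 months replicate 3 (adjusted p from 0.0726 to 0.0891). Sema3a, the classic axon repellent, fell: it measured 2.37, 1.55 and 1.36 RPKM at PND2 and 0.96, 0.78 and 0.81 RPKM at 4 months (log2 fold change -0.94, SE 0.28, adjusted p = 0.0373). The fall of Sema3a was no longer called without PND2 replicate 1, PND2 replicate 2, 4 months replicate 1, 4 months replicate 2 or 4 months replicate 3 (adjusted p from 0.0601 to 0.0967).

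Sema3f, which acts mainly through Nrp2, was the most abundant semaphorin at both ages, with 35.4, 44.4 and 44.2 RPKM at PND2 and 60.7, 42.6 and 55.6 RPKM at 4 months. The ages overlapped and it did not pass the test (log2 fold change 0.35, SE 0.16, adjusted p = 0.129). Sema3f was called without 4 months replicate 2 (adjusted p = 0.0369). It was also called under median scaling (log2 fold change 0.47, adjusted p = 0.0358) and by voom on recovered reads (0.48, adjusted p = 0.0201). Sema3g, known from arterial endothelium, measured 9.76, 10.9 and 14.7 RPKM at PND2 and 6.37, 5.38 and 10.9 RPKM at 4 months (log2 fold change -0.68, SE 0.28, adjusted p = 0.0995). Sema3g was called without 4 months replicate 3 (adjusted p = 0.0226). Sema3e, the ligand that binds Plxnd1 without a neuropilin, was low, at means of 0.19 and 0.24 RPKM, and did not pass the test.

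The rise of Sema3b was uneven along the gene, which lies on the minus strand of chromosome 9 (mm10). The exon at the 5′ end, chr9:107609121-107609229, measured 1.41, 0.90 and 1.57 RPKM at PND2 and 15.7, 10.8 and 18.1 RPKM at 4 months, an 11.5-fold difference of the means over a mean of 27.2 reads per library. A second far upstream exon, chr9:107607034-107607092, measured 1.74, 1.67 and 5.21 RPKM at PND2 and 28.6, 28.5 and 36.3 RPKM at 4 months, or 10.8-fold, and the exon next to it, chr9:107606754-107606934, differed by 5.71-fold. The annotation (GENCODE M21) places the first and the second of these in the 5′ untranslated part of protein-coding transcripts. Of the annotated exons with a mean of at least 20 reads, many of which overlap each other, the 6 that lie 2 to 3 kilobases from the 5′ end, which take in the last pair named, differed by 4.29 to 10.8-fold, and the 33 beyond 3 kilobases by 2.09 to 3.68-fold (median 2.62). Other exons of the 2 to 3 kilobase window, with means of 14.3 to 17.2 reads, differed by only 3.00 to 3.07-fold. The step at 3 kilobases thus depends on the minimum of 20 reads. A first exon nearer to the coding part, chr9:107605272-107605402, had a mean of only 3.17 reads. The exons were looked at after the gene's rise was known, and their difference was not tested.

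**Figure D3:**
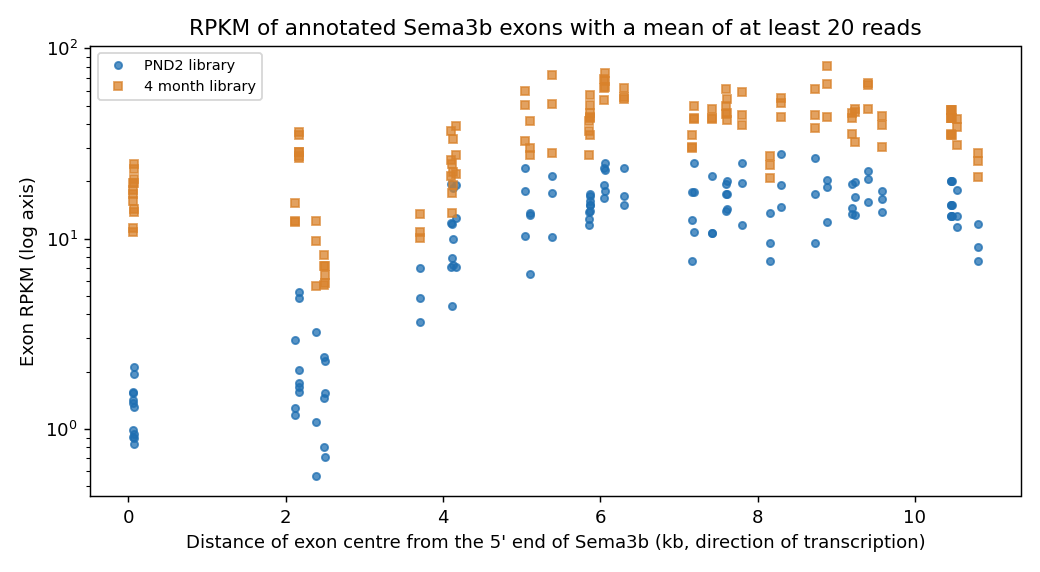
Level (y axis, RPKM, log axis) of each annotated Sema3b exon with a mean of at least 20 reads against the distance of its centre from the gene's 5′ end (x axis, kilobases), with 1 point per library. The adult and PND2 levels are farthest apart, in proportion, at the exons nearest the 5′ end.

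Of the 13 membrane-bound semaphorins, 5 fell, 1 rose and 7 did not pass the test. The share called, 46.2%, was close to the 42.2% of the protein-coding genes tested. Sema4a, known for roles in immune cells and in the retina, was nearly silent in the newborn valve, with 0.63, 0.70 and 0.67 RPKM at PND2 and 5.23, 5.30 and 4.82 RPKM at 4 months. Its adult libraries lay far above those of PND2 and its rise was the largest of the guidance genes (log2 fold change 2.77, SE 0.19, adjusted p = 0.000123). Of the 8 macrophage markers, whose summed levels are given above, 6 also rose, and their part in this result was not tested. Among those that fell, Sema5b measured 1.16, 1.75 and 1.69 RPKM at PND2 and 0.49, 0.27 and 0.30 RPKM at 4 months (log2 fold change -1.86, SE 0.32, adjusted p = 0.00424). Sema7a, which is anchored to the membrane by a lipid and binds Plxnc1, measured 5.85, 7.89 and 8.96 RPKM at PND2 and 3.27, 4.88 and 3.38 RPKM at 4 months (log2 fold change -0.96, SE 0.23, adjusted p = 0.016). The fall of Sema7a was no longer called without PND2 replicate 2, PND2 replicate 3 or 4 months replicate 3 (adjusted p from 0.05005 to 0.058).

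Of the other 3 that fell, Sema6a, a transmembrane ligand of A-type plexins, measured 7.45, 7.09 and 8.06 RPKM at PND2 and 3.79, 3.89 and 2.88 RPKM at 4 months (log2 fold change -1.09, SE 0.17, adjusted p = 0.00293). Sema6d, known for its part in heart tube looping together with Plxna1, measured 12.9, 15.9 and 17.7 RPKM at PND2 and 9.19, 11.01 and 8.36 RPKM at 4 months (log2 fold change -0.70, SE 0.16, adjusted p = 0.0149). The fall of Sema6d was no longer called without PND2 replicate 3 or 4 months replicate 3 (adjusted p from 0.0545 to 0.0552). Sema4b, a transmembrane class 4 member, measured 4.87, 5.10 and 5.62 RPKM at PND2 and 3.08, 2.83 and 2.96 RPKM at 4 months (log2 fold change -0.79, SE 0.15, adjusted p = 0.00729). In each of these genes the ages did not overlap.

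Among the 7 membrane semaphorins that did not pass the test, Sema5a was nearly level, with 13.9, 14.1 and 15.7 RPKM at PND2 and 17.6, 15.8 and 13.4 RPKM at 4 months (log2 fold change 0.09, SE 0.13, adjusted p = 0.623). Sema4c, a ligand of Plxnb2, measured 18.1, 20.1 and 16.97 RPKM at PND2 and 18.2, 13.9 and 12.9 RPKM at 4 months (log2 fold change -0.30, SE 0.15, adjusted p = 0.168). Sema4c was called without 4 months replicate 1 (adjusted p = 0.0444). Sema6c measured 6.82, 9.61 and 7.85 RPKM at PND2 and 9.26, 5.11 and 6.31 RPKM at 4 months (log2 fold change -0.26, SE 0.24, adjusted p = 0.447). Sema4f had the largest log2 fold change of the genes that did not pass, 1.32 (adjusted p = 0.0576), at a mean of 36 reads per library (44, 2 and 9 reads at PND2), and voom on recovered reads called it higher (2.59, adjusted p = 0.0227). The remaining 3, Sema4d, Sema4g and Sema6b, had means between 1.15 and 4.82 RPKM.

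The receptors of the semaphorins either fell or did not pass the test. The share called was 100% of the 2 neuropilins, against 42.2% of the protein-coding genes tested. Nrp1, a receptor shared by class 3 semaphorins and vascular endothelial growth factors, measured 89.95, 91.8 and 116 RPKM at PND2 and 56.7, 73.3 and 53.3 RPKM at 4 months. The ages did not overlap and it fell (log2 fold change -0.70, SE 0.16, adjusted p = 0.0119). Nrp2, its paralogue, measured 16.4, 10.1 and 17.8 RPKM at PND2 and 5.70, 6.89 and 7.97 RPKM at 4 months and fell (log2 fold change -1.07, SE 0.24, adjusted p = 0.0126). The ratio of Nrp1 to Nrp2 was 5.49, 9.12 and 6.53 at PND2 and 9.95, 10.6 and 6.69 at 4 months, with overlap (exact permutation p = 0.2).

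Of the 9 plexins, which are all transmembrane receptors of semaphorins, 2 fell. The share called, 22.2%, was below the 42.2% of the protein-coding genes tested. Plxnd1, the endothelial plexin of Sema3c and Sema3e signalling, measured 39.9, 38.4 and 51.4 RPKM at PND2 and 28.1, 26.97 and 30.8 RPKM at 4 months (log2 fold change -0.58, SE 0.13, adjusted p = 0.0133). Plxna1, a partner of the neuropilins, measured 16.5, 23.3 and 21.8 RPKM at PND2 and 12.4, 13.2 and 14.3 RPKM at 4 months (log2 fold change -0.61, SE 0.15, adjusted p = 0.0187), and 10.7% of its exonic bases are shared with the antisense gene Gm26811. The fall of Plxna1 was no longer called without PND2 replicate 2, PND2 replicate 3, 4 months replicate 1 or 4 months replicate 2 (adjusted p from 0.0502 to 0.0669). Plxnb2 measured 63.1, 83.98 and 74.4 RPKM at PND2 and 64.5, 56.1 and 65.8 RPKM at 4 months (log2 fold change -0.24, SE 0.13, adjusted p = 0.184), with overlap.

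The other plexins did not pass the test either. Plxna2 measured 9.41, 8.32 and 8.66 RPKM at PND2 and 7.33, 8.30 and 7.08 RPKM at 4 months and Plxna4 measured 10.99, 11.98 and 12.9 RPKM at PND2 and 10.8, 9.99 and 9.88 RPKM at 4 months, and for both the adult libraries all lay below those of PND2 by a small step (log2 fold changes -0.21 and -0.22, adjusted p = 0.236 and 0.174). Plxna3 measured 3.93, 8.54 and 8.43 RPKM at PND2 and 3.94, 4.24 and 5.31 RPKM at 4 months (log2 fold change -0.55, SE 0.31, adjusted p = 0.218). Plxnb1 measured 12.1, 17.6 and 15.01 RPKM at PND2 and 12.8, 10.9 and 10.6 RPKM at 4 months (log2 fold change -0.36, SE 0.16, adjusted p = 0.124). Plxna3 was called without PND2 replicate 1 (adjusted p = 0.0115). Plxnb1 was called without PND2 replicate 1 (adjusted p = 0.0344). Plxnb3 and Plxnc1 had means of 0.57 and 0.68 RPKM and of 4.88 and 3.03 RPKM.

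The ephrins that changed were all lower in the adult. All 3 B-type ephrins, which span the membrane, fell, as did 3 of the 5 A-type ephrins, which are anchored by a lipid. These shares, 100% and 60.0%, compare with 42.2% called (23.6% lower) of the protein-coding genes tested. Efnb2, the arterial ephrin, measured 59.1, 65.1 and 79.9 RPKM at PND2 and 25.1, 24.2 and 22.2 RPKM at 4 months, and its libraries of the ages stood far apart (log2 fold change -1.50, SE 0.13, adjusted p = 0.000267). Efnb3 measured 28.3, 30.99 and 47.1 RPKM at PND2 and 8.99, 15.9 and 13.05 RPKM at 4 months (log2 fold change -1.48, SE 0.26, adjusted p = 0.00458), and Efnb1, the ephrin of craniofacial development, measured 15.4, 22.5 and 24.8 RPKM at PND2 and 11.6, 10.4 and 12.6 RPKM at 4 months (log2 fold change -0.83, SE 0.19, adjusted p = 0.0134). Neither overlapped between the ages. Among the A-type ephrins, Efna1, an endothelial ephrin induced by inflammatory signals, measured 33.9, 31.1 and 37.1 RPKM at PND2 and 19.4, 12.7 and 11.4 RPKM at 4 months (log2 fold change -1.26, SE 0.20, adjusted p = 0.00313). Efna4 measured 7.33, 8.28 and 6.18 RPKM at PND2 and 1.88, 1.34 and 2.07 RPKM at 4 months (log2 fold change -1.99, SE 0.22, adjusted p = 0.000718), and Efna2 measured 3.56, 4.91 and 5.24 RPKM at PND2 and 1.55, 1.06 and 1.85 RPKM at 4 months (log2 fold change -1.57, SE 0.27, adjusted p = 0.00407). The exonic bases of Efna4 are shared over 10.5% with the antisense gene 4731419I09Rik, and its levels in exons free of other genes lay within 1 SD of these. Efna5 was nearly level, with 19.3, 22.3 and 20.4 RPKM at PND2 and 19.9, 18.5 and 17.4 RPKM at 4 months (log2 fold change -0.15, SE 0.11, adjusted p = 0.31), and Efna3 was low, at means of 0.72 and 0.78 RPKM, with 14.1% of its exonic bases shared with Gm15998. In exons free of other genes Efna3 measured 0.50, 0.11 and 0.22 RPKM at PND2 and 0.09, 0 and 0.34 RPKM at 4 months, so that much of its printed level lay in the shared exons.

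Of the 14 Eph receptors, receptor tyrosine kinases that bind ephrins on neighbouring cells, 10 were tested, 5 fell and 1 rose. The share called was 60.0%, against 42.2% of the protein-coding genes tested. Ephb4, the venous partner of Efnb2, measured 67.6, 63.1 and 75.6 RPKM at PND2 and 30.4, 24.8 and 29.6 RPKM at 4 months and fell, as its ligand did (log2 fold change -1.28, SE 0.12, adjusted p = 0.000334). The ratio of Efnb2 to Ephb4 was 0.87, 1.03 and 1.06 at PND2 and 0.82, 0.98 and 0.75 at 4 months, and the ages overlapped (exact permutation p = 0.2). Ephb3 measured 13.9, 28.6 and 15.3 RPKM at PND2 and 7.13, 7.63 and 5.59 RPKM at 4 months, with PND2 replicate 2 the highest, and fell (log2 fold change -1.43, SE 0.28, adjusted p = 0.00716). Epha7 measured 11.97, 11.1 and 13.6 RPKM at PND2 and 4.86, 5.49 and 5.19 RPKM at 4 months (log2 fold change -1.22, SE 0.13, adjusted p = 0.000682). Epha3, the receptor of Efna1 in endocardial cushions, measured 5.14, 6.50 and 6.84 RPKM at PND2 and 2.75, 2.43 and 2.37 RPKM at 4 months (log2 fold change -1.25, SE 0.18, adjusted p = 0.00207). In none of these 4 receptors did the ages overlap.

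Epha2, an epithelial and endothelial receptor of Efna1, fell less, with 8.24, 7.60 and 6.56 RPKM at PND2 and 4.02, 3.84 and 5.65 RPKM at 4 months (log2 fold change -0.73, SE 0.19, adjusted p = 0.0232). The fall of Epha2 was no longer called without PND2 replicate 1, PND2 replicate 2, 4 months replicate 1 or 4 months replicate 2 (adjusted p from 0.0592 to 0.0696). Epha1 was the only Eph receptor called higher, with 4.51, 6.62 and 6.58 RPKM at PND2 and 11.9, 8.77 and 8.79 RPKM at 4 months (log2 fold change 0.73, SE 0.21, adjusted p = 0.0295), and 6.01% of its exonic bases are shared with Zyx on the other strand. The rise of Epha1 was no longer called without PND2 replicate 1, 4 months replicate 1 or 4 months replicate 3 (adjusted p from 0.0548 to 0.085). Epha4, a receptor of both ephrin types, measured 5.34, 5.63 and 6.22 RPKM at PND2 and 7.86, 7.20 and 4.42 RPKM at 4 months and Ephb6, which lacks kinase activity, measured 7.02, 9.60 and 6.95 RPKM at PND2 and 10.4, 7.49 and 10.9 RPKM at 4 months. Both overlapped between the ages (log2 fold changes 0.14 and 0.28, adjusted p = 0.678 and 0.312). Ephb1 and Ephb2 were low, at means of 1.12 and 0.74 RPKM and of 2.99 and 2.01 RPKM, and did not pass the test. Epha5, Epha6, Epha8 and Epha10 were below the minimum for the test, with at most 58 reads in any library.

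**Figure D4:**
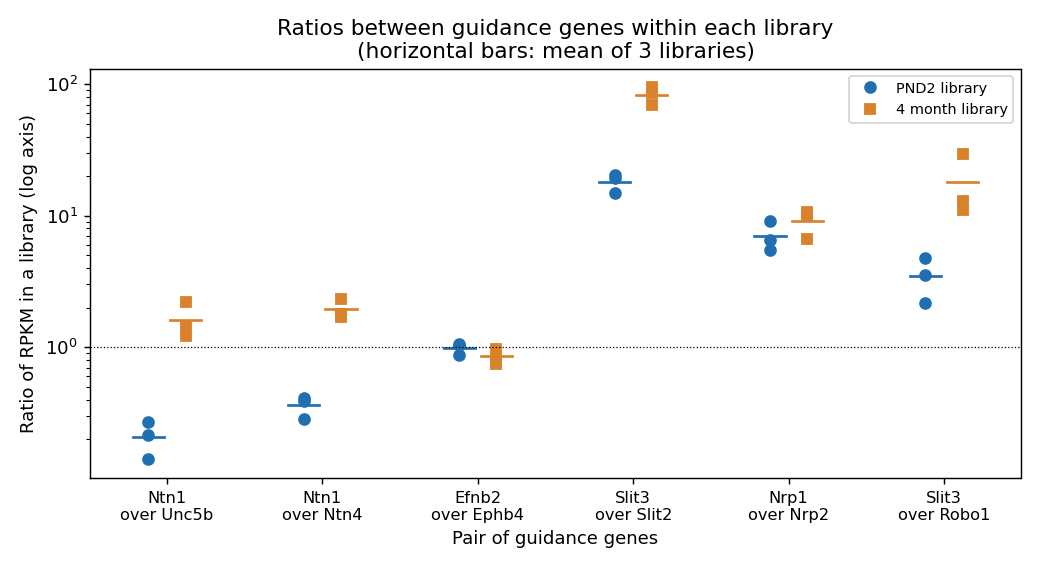
Ratio of the RPKM values of 6 pairs of guidance genes (y axis, log axis) in each library, with the pairs along the x axis, 1 point per library and a horizontal bar at the mean of each age. The ratios of Ntn1 to Unc5b, Ntn1 to Ntn4, Slit3 to Slit2 and Slit3 to Robo1 separate the ages, while those of Efnb2 to Ephb4 and Nrp1 to Nrp2 overlap.

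Several of the genes that fell are known from endothelium, among them Unc5b, Ephb4, Efnb2, Plxnd1 and Nrp1. Their log2 fold changes, from -0.58 to -1.50, lay beside those of the 12 endothelial markers, of which the 10 that fell ran from -0.49 for Pecam1 to -1.65 for Cldn5. Falls of like size were found in other marker lists. Of the 12 interstitial markers 6 fell, from -0.45 for Tcf21 to -1.55 for Vcan, and 3 rose. Of the 10 cardiomyocyte markers 5 fell, among them Tnnt2 (-1.33) and Ttn (-1.64), and 0 rose. Of genes known from endothelium, Robo4 and Sema3g (-0.56 and -0.68) did not pass the test, and neither did the markers Esam and Erg (-0.27 and -0.37). None of the endothelial markers was at 0 at either age, and their part in the results was not tested.

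The promoters of Efnb2, Ephb4 and Unc5b are shown because these 3 genes fell together from high levels. Each line gives the 250 bases before the transcription start from RefSeq (GRCm38.p6), read 5′ to 3′ on the gene's own strand, with capitals marking the GC box GGGCGG, the sequence CCAAT and the TATA sequence TATAAA on either strand. The windows are chr8:8661243-8661492 on the minus strand for Efnb2, chr5:137349859-137350108 on the plus strand for Ephb4 and chr10:60831582-60831831 on the minus strand for Unc5b. The gene model used for counting begins Efnb2 at position 8660773, downstream of the RefSeq start at 8661242. Use of that RefSeq start in these valves was therefore not measured.
Efnb2: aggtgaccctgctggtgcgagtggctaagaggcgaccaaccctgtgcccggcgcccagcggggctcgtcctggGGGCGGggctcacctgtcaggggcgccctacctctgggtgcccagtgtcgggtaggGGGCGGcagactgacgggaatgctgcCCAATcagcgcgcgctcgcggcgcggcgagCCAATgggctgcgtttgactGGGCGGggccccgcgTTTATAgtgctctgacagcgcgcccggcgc
Ephb4: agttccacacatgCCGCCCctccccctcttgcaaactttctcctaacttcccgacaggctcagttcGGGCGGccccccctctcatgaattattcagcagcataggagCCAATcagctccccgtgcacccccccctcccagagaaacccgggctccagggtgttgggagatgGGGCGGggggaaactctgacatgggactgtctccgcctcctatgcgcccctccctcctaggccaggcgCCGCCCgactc
Unc5b: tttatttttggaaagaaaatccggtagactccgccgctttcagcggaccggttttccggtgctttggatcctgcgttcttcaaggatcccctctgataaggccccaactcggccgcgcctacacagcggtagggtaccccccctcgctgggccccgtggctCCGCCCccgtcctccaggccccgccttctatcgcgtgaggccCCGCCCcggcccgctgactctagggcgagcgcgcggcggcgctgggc
Efnb2 held 27 CpG pairs, 3 GC boxes, 2 CCAAT sequences and 1 TATA sequence, Ephb4 held 12 CpG pairs, 4 GC boxes and 1 CCAAT sequence, and Unc5b held 27 CpG pairs and 2 GC boxes. RefSeq promoters were found for 58 of the 67 guidance genes, 74 promoters in all. A GC box stood in 70.3% of them, against 42.6% of 21262 promoters of protein-coding genes and 32.7% of all 32851. The CCAAT sequence stood in 27.0%, against 35.4 and 33.8%, and the TATA sequence in 2.70%, against 11.6 and 12.4%. The median promoter of a guidance gene held 15.5 CpG pairs, against 10 for protein-coding genes and 6 for all. Overlapping matches were counted, and a match is only a match of letters. Promoters of 1 gene that overlap each other share bases.

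Other genes of the same pathways, 45 co-receptors, adaptors and effectors from a list chosen with earlier results known, changed in both directions. Of 42 tested, 22 were called, 9 higher and 13 lower, and the median log2 fold change was -0.11. Over the protein-coding genes tested 42.2% were called (18.6% higher and 23.6% lower), with a median of -0.10. Ngef, which acts below EphA receptors, rose most, from 0.45 ± 0.24 to 8.56 ± 1.10 RPKM (SD, n = 3 each; log2 fold change 4.07, limma adjusted p = 0.000356). Ntng2, a membrane-anchored netrin-G that does not bind Dcc or Unc5 receptors, rose from 0.73 ± 0.05 to 6.53 ± 0.95 RPKM (2.98, adjusted p = 0.000114), and Rgma, a Neo1 ligand, from 4.37 ± 1.02 to 9.97 ± 0.93 RPKM (1.19, adjusted p = 0.00359). Srgap1, a GTPase-activating protein that binds Robo1, fell from 4.57 ± 0.81 to 0.81 ± 0.17 RPKM (-2.36, adjusted p = 0.000554), while its paralogue Srgap3 rose (0.79, adjusted p = 0.035). Flrt3, a membrane protein that binds Unc5 receptors and Robo1, fell (-1.78, adjusted p = 0.00114), as did the protease Adam10, which sheds ephrins (-0.85, adjusted p = 0.00172).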

How the data were processed

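RNA of pooled aortic valves was sequenced at PND2 and 4 months, in 3 libraries per age. According to the submitters' processing notes, reads were aligned to mm10 with TopHat2 2.1.0 and handled in R 3.2.2. The authors deposited RPKM values per gene and per exon, which had been counted on Ensembl gene models with easyRNASeq, and use of strand in counting is not given in the sources used here. Library totals ran from 23810507 to 38994657. Multiplying each deposited RPKM by exonic length and library total gave whole reads for 100% of values above 0 (within 0.05).

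Limma 3.58.1 (R 4.3.3, eBayes with a trend, 2-sided) was fitted to log2(RPKM + 0.1) over the 25903 genes that reached 0.1 RPKM in 3 or more libraries, with Benjamini-Hochberg adjustment. The pseudocount understates changes of low genes. RPKM levels from whole-library totals are relative, so that a rise of abundant transcripts lowers others. The replicates are labelled biological. Alternatives were a pseudocount of 1 or 0.01, no filter, a minimum of 1 RPKM, no trend, median scaling, an unequal-variance test per gene, voom on recovered reads (TMM factors computed from the published formula, genes of at least 10 reads in 3 libraries), a floor at 10 reads, a replicate block, leaving out each library, and exons that no other gene overlaps. Ratios were compared by exact permutation (scipy 1.17.1). Tables and figures used Python 3.11.15, numpy 2.4.6, pandas 2.3.3 and matplotlib 3.10.9.

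The guidance genes, the other guidance genes and the marker lists were chosen with earlier results of these data known. Values in every library are printed for genes with a mean of at least 5 RPKM at one age or a called log2 fold change of at least 2 in size, and for single others that complete a family. The fit was tested on simulated data. A first criterion for the share of changes found was not met and was replaced after that result was seen: 4-fold changes were mostly found, 2-fold ones were often missed, and false calls lay in genes of few reads. No called guidance gene had a mean under 50 reads (lowest 115). Of the 67 genes, 16 share exonic bases with another gene.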

Additional observations from a re-analysis of the deposited data

How the results depend on the processing

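All 34 called guidance genes kept their direction in the 16 alternatives that give a test. Of these, 13 kept their call in every one and 25 in every one but the unequal-variance test per gene. The others were Epha1, Epha2, Plxna1, Robo1, Sema3a, Sema3d, Sema6d, Sema7a and Slit3. The unequal-variance test called 3 guidance genes higher and 10 lower, and 1466 of all genes higher and 1942 lower, against 8 and 26 and against 3810 and 5463 in the limma fit. Leaving out 1 library gave 5 to 7 guidance genes higher and 23 to 26 lower, and 2634 to 3467 of all genes higher and 3403 to 5114 lower. Voom called 11 guidance genes higher and 26 lower. Epha4, which was not called, had a log2 fold change of 0.14, with a range of -0.018 to 0.39 when 1 library was left out, and changed sign without 4 months replicate 1. With the replicate number as a block, 5 guidance genes were higher and 25 lower (3004 and 4163 of all genes). No pairing by number was seen: deviations of same-numbered libraries correlated at 0.04, -0.06 and -0.16. PND2 replicate 2 correlated best with 4 months replicate 3 (0.23). With 3 libraries per age, whose deviations sum to 0, these correlations cannot decide whether libraries were paired. Limits are the 3 pools per age, the mixed cell types and the low reads of the 6 genes not tested. The causes of these differences were not tested.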
